A study of Homo sapiens with 19 samples.

Results

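The Hippo pathway genes YAP1 and WWTR1 (the gene of TAZ), the TEAD family genes TEAD1, TEAD3 and TEAD4, and 5 genes that YAP and TAZ are known to switch on were followed through RNA-seq of MDA-MB-231 cells. The 5 targets were CYR61 (now called CCN1), CTGF (now called CCN2), ANKRD1, AMOTL2 and AXL. The 10 genes were chosen by name, with earlier results of these data known. Each had 1 row in every expression table, out of 19021 genes listed for culture, 26955 for the SCIRT knockdown and 28870 for the EZH2 knockdown. All 10 passed the filter on low values in each table, a mean normalized count of at least 10. A normalized count is a gene's reads after the authors scaled each library to the others of its table, so levels are compared within a table.

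MDA-MB-231 is an established human line from a triple-negative breast cancer, and it is known to carry a truncating mutation of NF2, an upstream activator of the Hippo kinases. The study held 19 libraries in 8 groups, all of this line. In the culture table, cells grown attached in DMEM with 10% fetal calf serum (n = 2) stood beside spheres kept on non-adherent plates in DMEM/F12 with B27, 20 ng/ml EGF and 20 ng/ml FGF for 16 h (n = 2) or 5 d (n = 2). In the knockdown tables, cells were reverse transfected with siRNA and then kept for 48 h in the sphere medium. The SCIRT table held spheres given one of a pair of siRNAs to the long noncoding RNA SCIRT, siSCIRT#1 or siSCIRT#2, or the control siNC (n = 3 each). The EZH2 table held siEZH2 and its own siNC (n = 2 each), EZH2 being the histone methyltransferase of the Polycomb repressive complex PRC2. Spheres and attached cells differed in attachment, medium, serum and growth factors at once, and their parts in the sphere differences cannot be told apart.

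YAP and TAZ are co-activators with no DNA-binding domain of their own. When the kinases MST and LATS are active, YAP and TAZ are phosphorylated and kept out of the nucleus or degraded, and when the kinases are silent the co-activators enter the nucleus and bind TEAD proteins on DNA. Firm attachment, a spread cell shape and serum lipids are known to favour nuclear YAP and TAZ, and detachment is known to activate LATS. CYR61 and CTGF encode secreted matricellular proteins that bind integrins, ANKRD1 a nuclear ankyrin-repeat protein, AMOTL2 an angiomotin that binds YAP and holds it back, and AXL a receptor tyrosine kinase for GAS6. The RNA values below say nothing of where the YAP and TAZ proteins were.

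Library totals ran from 6104222 to 14781941 reads for culture, 38635418 to 62218847 for the SCIRT table and 27989577 to 38955312 for the EZH2 table, and the fewest reads behind any value of the 10 genes were 61, for TEAD4 in 5 d replicate 2. Genes of the mitochondrial genome took 6.83 to 6.89% of reads in adherent cells, 8.55 to 8.56% in 16 h spheres and 9.65 to 9.74% in 5 d spheres, and 5.54 to 6.11% with siSCIRT, against 6.11 to 6.60% with siNC. Their part in the differences below was not tested. VIM and CD44, markers of this line, were abundant in all libraries, at no less than 31547 and 4468 normalized counts in culture, and VIM averaged 31850 in adherent cells, 61721 at 16 h and 34137 at 5 d, while SPARC, also taken as a marker, stood at no more than 6.16 there, against that list. ESR1 and CDH1 stood at no more than 1.51 and 21.1 in culture, and EPCAM averaged 91.8 in adherent cells, 24.4 at 16 h and 87.1 at 5 d. EPCAM was lower at 16 h than in adherent cells (-1.87, limma adjusted p 9.69e-08) and VIM higher (0.95, 1.26e-38), and their part in the sphere differences was not tested. Of 6 blood and vessel markers, PTPRC and VWF alone had rows in culture, with a summed level of 13.4 to 14.3 in adherent cells, 0 to 1.22 in 16 h spheres and 4.14 to 12.3 at 5 d. With CD68 added, the sums were 15.6 to 42.9 with siSCIRT, against 21.9 to 28.5 with siNC, and 37.99 to 39.8 with siEZH2, against 53.2 to 55.5 with siNC.

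TEAD proteins are known to bind the letters GGAATG, so the stretches before the start of 4 targets are shown, 3 of which were called lower in both the sphere and the SCIRT data (CTGF, ANKRD1 and AMOTL2) and 1 of which was called lower in spheres and not called with siSCIRT (AXL). Each is 250 bases before a RefSeq start, 5′ to 3′ along the gene's strand in build GRCh38.p14, with GGAATG or its reverse complement in capitals. AMOTL2 and AXL each have another RefSeq start whose window held no match. For both genes the window with a match was picked for display.
CTGF, chr6:131951373-131951622, minus strand: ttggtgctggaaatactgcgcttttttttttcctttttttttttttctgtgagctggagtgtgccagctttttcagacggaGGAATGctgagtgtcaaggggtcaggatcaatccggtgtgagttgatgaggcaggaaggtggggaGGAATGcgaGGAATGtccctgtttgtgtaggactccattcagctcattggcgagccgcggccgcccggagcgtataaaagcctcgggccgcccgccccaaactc
ANKRD1, chr10:90921088-90921337, minus strand: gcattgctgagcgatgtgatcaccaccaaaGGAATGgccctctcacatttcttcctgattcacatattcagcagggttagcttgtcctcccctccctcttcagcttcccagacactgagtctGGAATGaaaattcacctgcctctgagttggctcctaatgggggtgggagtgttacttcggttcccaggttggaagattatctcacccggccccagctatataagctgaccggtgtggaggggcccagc
AMOTL2, chr3:134374448-134374697, minus strand: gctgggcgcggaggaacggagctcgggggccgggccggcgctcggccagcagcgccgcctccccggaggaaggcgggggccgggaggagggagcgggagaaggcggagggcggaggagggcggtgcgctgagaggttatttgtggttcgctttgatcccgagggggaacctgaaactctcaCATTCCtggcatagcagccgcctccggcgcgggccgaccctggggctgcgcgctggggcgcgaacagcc
AXL, chr19:41226505-41226754, plus strand: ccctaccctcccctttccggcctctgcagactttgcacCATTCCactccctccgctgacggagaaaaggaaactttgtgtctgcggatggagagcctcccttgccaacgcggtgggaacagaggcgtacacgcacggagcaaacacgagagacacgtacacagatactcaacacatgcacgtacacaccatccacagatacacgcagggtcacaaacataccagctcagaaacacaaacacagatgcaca

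The RefSeq windows used run from 250 bases before to 50 bases after a start, and 7 of the 10 genes matched, with 10 windows. CYR61, TEAD1 and TEAD4 are named only. The CTGF window held 3 GGAATG matches, which began 169, 104 and 95 bases before the start, and at least 3 matches on either strand were found in 0.128% of all 35116 windows. The ANKRD1 window held 2, which began 220 and 128 bases before the start, and at least 2 were found in 1.37% of windows. It also held 1 match to the AP-1 letters TGANTCA, which did not overlap either of them and which 7.71% of windows hold. AMOTL2 and AXL had 2 windows each, and in each case 1 window held a single match and the other none. The YAP1 window held 1 match, and the windows of WWTR1 and TEAD3 held none. At least 1 match was found in 4928 of all windows. A match is a description of the letters and not a site of binding.

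In spheres the genes of the 2 co-activators were higher than in attached cells, while the 5 targets were lower at both times, by between 2.07-fold and 16.0-fold. Of the 10 genes, 2 were higher and 7 lower in 16 h spheres than in adherent cells, at an adjusted p under 0.05 from limma with Benjamini-Hochberg adjustment over 13789 genes. Of all genes tested, 53.9% were called in that comparison, 27.4% higher and 26.5% lower. In 5 d spheres, 2 were higher and 8 lower than in adherent cells, where 55.2% of all genes were called, 26.3% higher and 28.9% lower. The median log2 difference of the 10 genes was -1.11 at 16 h and -1.16 at 5 d, beside -0.01 and -0.02 over all genes tested. Both times were compared with the same adherent libraries. In RNA from whole cultures, fewer cells that express a gene and less RNA per cell cannot be told apart.

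YAP1 had 1622 and 1617 normalized counts in adherent cells, 2504 and 2478 at 16 h, and 2310.5 and 2399 at 5 d. The sphere libraries lay above both adherent libraries at each time. The log2 difference was 0.62 ± 0.04 (SE) at 16 h (limma adjusted p 7.1e-15) and 0.54 ± 0.04 at 5 d (4.47e-13). WWTR1 had 691 and 644 normalized counts in adherent cells, 1189.5 and 1127 at 16 h, and 1680.1 and 1733 at 5 d. No library of 1 group overlapped another, and the levels stepped up at each time. WWTR1 differed from adherent cells by 0.79 ± 0.06 at 16 h (limma adjusted p 9.49e-14) and by 1.35 ± 0.06 at 5 d (1.83e-20). Between the sphere times WWTR1 was higher at 5 d by 0.56 ± 0.06 (limma adjusted p 1.45e-09), while YAP1 differed by -0.08 ± 0.04 (0.13) and was not called.

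The libraries were made with a kit that does not mark strand, so reads of a gene and of an antisense partner cannot be told apart. In the culture table RP11-864G5.3, which overlaps YAP1 on the other strand, stood at 225 to 370 normalized counts, or 13.7 to 15.4% of YAP1 in the same library. WWTR1-AS1 stood at 3.93 to 7.64% of WWTR1. Both partners were higher in all sphere libraries than in the adherent ones, as the sense genes were. That is not a separate observation, since the reads may be those of the sense genes. In the knockdown tables the overlapping genes with a row stood at no more than 0.342% of their partner among the 10.

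The TEAD genes, which encode the DNA-binding partners, were lower in spheres wherever they were called. TEAD1 had 1468 and 1475 normalized counts in adherent cells, 957 and 1004 at 16 h, and 1347 and 1300.3 at 5 d. It was lowest at 16 h and came nearer the adherent level at 5 d, with no overlap between groups. TEAD1 differed from adherent cells by -0.59 ± 0.06 at 16 h (limma adjusted p 3.91e-11) and by -0.15 ± 0.06 at 5 d (0.0234), and 5 d stood above 16 h by 0.43 ± 0.06 (7.25e-08). The small 5 d difference of TEAD1 was past the threshold in 9 of 14 alternative settings, and it was lost without adherent replicate 1 (-0.16, adjusted p 0.108), adherent replicate 2 (-0.15, 0.127) or 5 d replicate 2 (-0.13, 0.11).

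TEAD3 had 689 and 771 normalized counts in adherent cells, 669 and 618 at 16 h, and 600.4 and 612 at 5 d. The sphere libraries of both times lay below the adherent ones. The 16 h difference of -0.18 ± 0.08 was not called by limma (adjusted p 0.0585), but it passed without adherent replicate 1 (-0.26, 0.0414) or 16 h replicate 1 (-0.24, 0.0473) and in 7 of 14 alternative settings in all. Without adherent replicate 2 it was -0.10 (adjusted p 0.501). Its 5 d difference was -0.27 ± 0.08 (limma adjusted p 0.00537), and without adherent replicate 2 it was -0.18 (0.167). TEAD4 had 203 and 222 normalized counts in adherent cells, 94.9 and 136 at 16 h, and 81.8 and 94.0 at 5 d. All 4 sphere libraries lay below the adherent ones, and the highest 5 d library lay just under the lowest 16 h library. TEAD4 differed from adherent cells by -0.90 ± 0.19 at 16 h (limma adjusted p 0.000117) and by -1.27 ± 0.19 at 5 d (5.21e-07). TEAD4 at 5 d was not called against 16 h (-0.37 ± 0.19, limma adjusted p 0.109), but the difference was -0.62 (0.0184) without 16 h replicate 1 and -0.11 (0.701) without 16 h replicate 2.

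ANKRD1 had the largest difference of the 10 genes at both times. It had 12029.8 and 11932 normalized counts in adherent cells, 767 and 730.4 at 16 h, and 2193.5 and 2069 at 5 d. The 3 groups were far apart, with 5 d between the other groups. ANKRD1 was 16.0-fold lower at 16 h (log2 -4.00 ± 0.04, limma adjusted p 5.42e-42) and 5.62-fold lower at 5 d (-2.49 ± 0.04, 9.67e-35) than in adherent cells. Its level at 5 d was 2.85-fold that at 16 h (1.51 ± 0.04, 1.49e-27).

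CYR61 had 11443 and 11234 normalized counts in adherent cells, 2906 and 2565 at 16 h, and 3049.6 and 2938 at 5 d. Both sphere groups stood far below the adherent level and close to each other. The log2 difference from adherent cells was -2.05 ± 0.04 at 16 h (limma adjusted p 1.57e-26) and -1.92 ± 0.04 at 5 d (1.46e-25). CYR61 was called higher at 5 d than at 16 h, by 0.13 ± 0.04 (limma adjusted p 0.00703). That call was lost without 16 h replicate 2 (0.04, adjusted p 0.382) and without 5 d replicate 1 (0.11, 0.141), and the difference was 0.22 (9.89e-05) without 16 h replicate 1.

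CTGF had 3014 and 2880.4 normalized counts in adherent cells, 1161 and 1181 at 16 h, and 1524 and 1326 at 5 d. The groups did not overlap, and the 5 d libraries stood above the 16 h ones. CTGF differed from adherent cells by -1.33 ± 0.05 at 16 h (limma adjusted p 5.68e-22) and by -1.05 ± 0.05 at 5 d (1.29e-18), and 5 d exceeded 16 h by 0.28 ± 0.05 (5.93e-05). Without 5 d replicate 1 that step was 0.18 (adjusted p 0.009). RP11-69I8.3, on the other strand of CTGF, had 6.31 to 10.2% of the CTGF value in the culture libraries. It was lower in every sphere library than in the adherent ones, but its reads cannot be told apart from those of CTGF.

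AMOTL2 had 1003 and 1072 normalized counts in adherent cells, 265 and 227 at 16 h, and 348 and 280.4 at 5 d. It differed from adherent cells by -2.07 ± 0.11 at 16 h (limma adjusted p 2.75e-19) and by -1.73 ± 0.11 at 5 d (1.01e-16). The rise of 0.35 ± 0.11 between the sphere times (limma adjusted p 0.00676) was lost without 16 h replicate 2 (0.23, adjusted p 0.139) and without 5 d replicate 1 (0.19, 0.174).

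AXL had 8898 and 8989 normalized counts in adherent cells, 2887 and 3043.5 at 16 h, and 2872 and 2890.1 at 5 d. The sphere libraries of both times overlapped and lay far under the adherent ones. AXL differed from adherent cells by -1.59 ± 0.03 at 16 h (limma adjusted p 7.17e-32) and by -1.63 ± 0.03 at 5 d (6.2e-32). Its difference between the sphere times was -0.04 ± 0.03 (limma adjusted p 0.314), and under quantile normalization it turned to 0.14 (0.000888). CTD-2195B23.3, which overlaps AXL on the genome, stood at 2.91 to 4.42% of the AXL value in culture.

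Between the sphere times 6 of the 10 genes were higher at 5 d than at 16 h and none was lower, where 48.3% of all genes tested were called, 22.8% higher and 25.5% lower. By limma 6 of the 10 had an unadjusted p under 0.05. The 6 were WWTR1, TEAD1, CYR61, CTGF, ANKRD1 and AMOTL2. Calls by edgeR were 6 higher and 0 lower, and those by DESeq2 5 higher and 0 lower. CYR61 was not called by DESeq2 (0.14, adjusted p 0.129). By limma without an intensity trend in its variance, 3 of the 6 calls held, those of WWTR1, TEAD1 and ANKRD1.

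**Figure D1:**
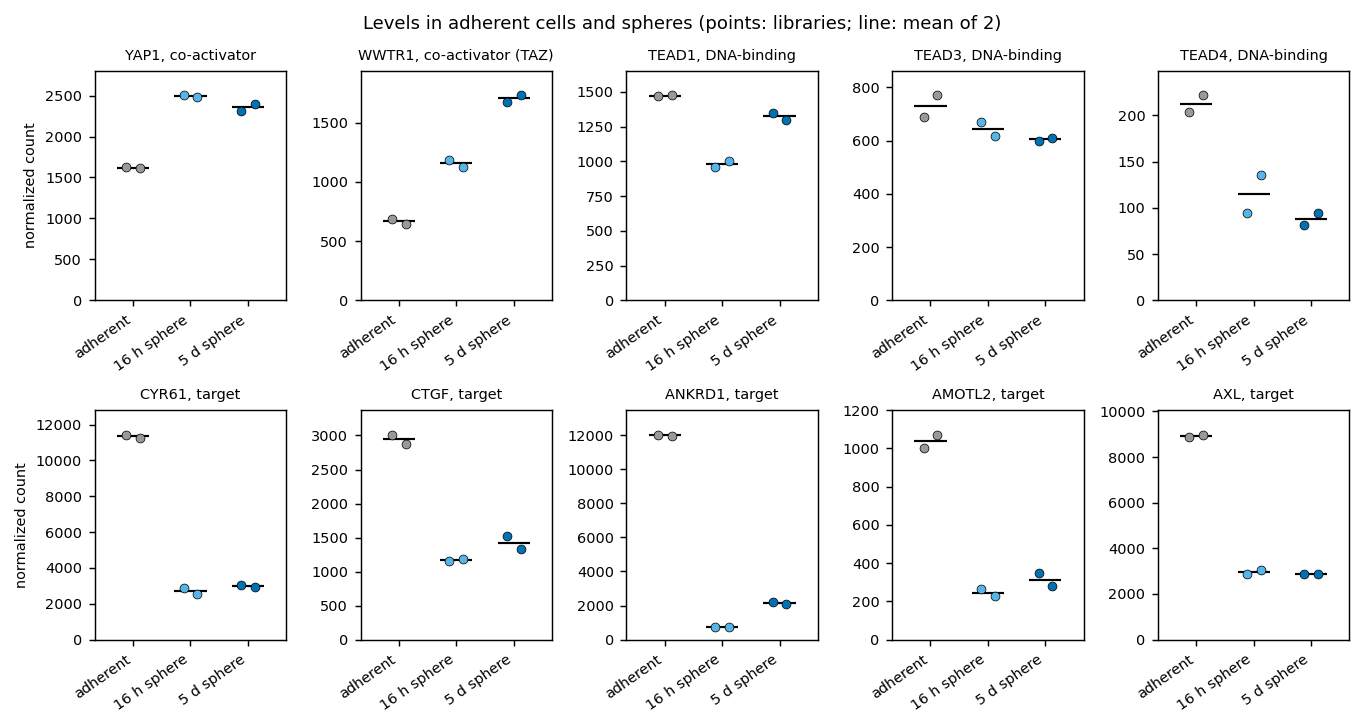
Normalized counts (y axis, from 0) of each gene in adherent cells, 16 h spheres and 5 d spheres, with 1 point per library and a line at the mean of 2. YAP1 and WWTR1 lie higher in the spheres, the 5 targets lie lower, and ANKRD1 at 5 d lies between its 16 h and adherent levels.

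Per kilobase of exon 4 of the 5 targets led the group in adherent cells, and AMOTL2 stood below YAP1 and TEAD3. The order by normalized count per kilobase there was ANKRD1 (6054), CYR61 (4619), AXL (1735), CTGF (1260), YAP1 (257), TEAD3 (240), AMOTL2 (173), TEAD1 (143), TEAD4 (93.4) and WWTR1 (79.4), and no neighbours overlapped in their libraries. ANKRD1 ranked 52 and CYR61 66 of 13485 genes with a length. At 16 h CYR61 came first with 1114 and ANKRD1, at 378, stood below YAP1, at 396, with rank 1177 of all genes, while TEAD4 and AMOTL2 overlapped at the low end. At 5 d CYR61 (1219.5) and ANKRD1 (1077) were again on top, WWTR1 (203) and TEAD3 (199) overlapped, and TEAD4 (38.7) was lowest. In the siNC spheres of the SCIRT table the order began with CYR61 (3696), AXL (2797), CTGF (2161) and YAP1 (1623), ANKRD1 (737) was eighth, and TEAD1, TEAD3 and WWTR1 overlapped.

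In the SCIRT knockdown, 4 of the 5 targets were lower with either siRNA, and AXL and the co-activator genes were not called. SCIRT itself, listed as RP5-1120P11.1, averaged 120 ± 7.63 normalized counts with siSCIRT#1 and 127 ± 28.6 with siSCIRT#2, against 269 ± 16.1 with siNC (SD, n = 3 each). In the culture table SCIRT averaged 3.41 normalized counts in adherent cells, 37.6 at 16 h and 68.0 at 5 d. It was called higher in spheres at both times, where the 5 targets were lower. EZH2 averaged 504, 162 and 334 in the same groups and was called lower in spheres at both times. Of the 10 genes, 1 was higher and 4 lower with siSCIRT#1, where 10.2% of 16607 genes tested were called, 4.63% higher and 5.56% lower. With siSCIRT#2 again 1 was higher and 4 lower, where 9.54% of all genes were called, 4.49% higher and 5.05% lower. The same siNC libraries served both siRNAs. The siSCIRT#1 libraries were told from the others by elimination, since their column names carry no siRNA number. For the mean of both siRNAs 2 were higher and 4 lower, where 14.4% of all genes were called, 6.82% higher and 7.58% lower, and the median log2 difference of the 10 genes was -0.09, beside 0.01 over all genes tested.

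CYR61 had 5554, 5225 and 5412 normalized counts with siSCIRT#1 and 5572, 5573 and 5515 with siSCIRT#2, against 9366, 8324 and 9530.2 with siNC. Every siSCIRT library lay below every siNC library. The log2 difference was -0.75 ± 0.06 with siSCIRT#1 (limma adjusted p 1.06e-05) and -0.71 ± 0.06 with siSCIRT#2 (2.51e-05). CTGF had 2895, 2951 and 3171.5 normalized counts with siSCIRT#1 and 2917.5, 3146 and 2917 with siSCIRT#2, against 5122, 4883 and 5162 with siNC. Here too no siSCIRT library reached the siNC range. CTGF differed by -0.75 ± 0.06 with siSCIRT#1 (limma adjusted p 1.06e-05) and by -0.76 ± 0.06 with siSCIRT#2 (2.14e-05). CYR61, CTGF and AMOTL2 were called lower for each siRNA under every setting tried.

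ANKRD1 had 1202, 883 and 1022 normalized counts with siSCIRT#1 and 1057, 1063 and 972 with siSCIRT#2, against 1538, 1355 and 1480.1 with siNC. The highest siSCIRT library lay below the lowest siNC library. The log2 difference was -0.50 ± 0.10 with siSCIRT#1 (limma adjusted p 0.00496) and -0.50 ± 0.10 with siSCIRT#2 (0.00575). The siSCIRT#2 call was past the threshold in 15 of 16 alternative settings and missed it without the variance trend (adjusted p 0.051). AMOTL2 had 1569, 1480.5 and 1482 normalized counts with siSCIRT#1 and 1485, 1387 and 1472.5 with siSCIRT#2, against 2181, 1858 and 2097.5 with siNC. The groups did not overlap, and AMOTL2 differed by -0.43 ± 0.08 with siSCIRT#1 (limma adjusted p 0.00173) and by -0.50 ± 0.08 with siSCIRT#2 (0.000791).

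AXL ran from 14005 to 14799 normalized counts with siSCIRT#1 and from 13544 to 14628 with siSCIRT#2, against 13936 to 14886 with siNC. The ranges overlapped almost fully. The mean of both siRNAs differed from siNC by -0.01 (limma adjusted p 0.945), with a 95% interval from -0.12 to 0.11. YAP1 averaged 9297 ± 320.3 normalized counts with siSCIRT#1 and 10014 ± 104 with siSCIRT#2, against 10221 ± 773 with siNC (SD, n = 3 each). WWTR1 averaged 7243 ± 254 with siSCIRT#1 and 7548 ± 362 with siSCIRT#2, against 7485 ± 658 with siNC. The siSCIRT#1 libraries of YAP1 lay just below the siNC ones, the other ranges overlapped, and the interval of the mean difference was -0.20 to 0.04 for YAP1 and -0.15 to 0.12 for WWTR1.

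Among the TEAD genes, TEAD3 had 3421, 3478 and 3703 normalized counts with siSCIRT#1 and 3542, 3510.5 and 3427 with siSCIRT#2, against 3032.5, 3058 and 2847 with siNC. All 6 siSCIRT libraries lay above the siNC ones. TEAD3 was higher by 0.25 ± 0.06 with siSCIRT#1 (limma adjusted p 0.0208) and by 0.23 ± 0.06 with siSCIRT#2 (0.0313). These calls were past the threshold in 10 of 15 and in 8 of 16 alternative settings, and the call of the mean (0.24 ± 0.05, limma adjusted p 0.00811) in 16 of 17. The siSCIRT#1 call was lost without siNC replicate 1 (0.26, adjusted p 0.054) or 3 (0.21, 0.107) and without siSCIRT#1 library b (0.26, 0.0644) or c (0.21, 0.116). The siSCIRT#2 call was lost without siNC replicate 1 (0.24, adjusted p 0.0753) or 3 (0.20, 0.143) and without siSCIRT#2 replicate 1 (0.22, 0.0864), 2 (0.23, 0.0673) or 3 (0.24, 0.0732). The call of the mean was lost without siNC replicate 3 (0.21, adjusted p 0.0653).

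TEAD1 had 10951, 13162 and 12954 normalized counts with siSCIRT#1 and 11754, 13367 and 12945 with siSCIRT#2, against 9595, 11601 and 10385 with siNC. The siSCIRT#1 libraries overlapped the siNC range and the siSCIRT#2 libraries did not. Neither siRNA alone was called (0.23 ± 0.09, limma adjusted p 0.112 with siSCIRT#1 and 0.27 ± 0.09, 0.0616 with siSCIRT#2), while their mean was (0.25 ± 0.07, 0.0348). DESeq2 called TEAD1 with siSCIRT#2 (0.27, adjusted p 0.0326), and so did limma with a block for replicate number (0.27, adjusted p 0.00304). The TEAD1 call of the mean was past the threshold in 10 of 17 alternative settings and was lost without siNC replicate 1 (0.19, adjusted p 0.192) or 3 (0.24, 0.129), without siSCIRT#1 library b (0.23, 0.0834) or c (0.23, 0.0804), and without siSCIRT#2 replicate 2 (0.23, 0.0698) or 3 (0.24, 0.0724). Left without siNC replicate 2, siSCIRT#1 (0.30, adjusted p 0.0396) and siSCIRT#2 (0.34, 0.0219) each passed, as did siSCIRT#1 without its library a (0.32, 0.0266) and siSCIRT#2 without its replicate 1 (0.33, 0.0487). TEAD4 averaged 892 ± 28.8 normalized counts with siSCIRT#1 and 869.5 ± 14.2 with siSCIRT#2, against 949 ± 65.1 with siNC, and was not called (mean difference -0.11 ± 0.07, limma adjusted p 0.358).

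The 2 siRNAs were also set against each other. The largest difference among the 10 genes was that of YAP1, at -0.11 for siSCIRT#1 over siSCIRT#2 with a 95% interval from -0.25 to 0.03, and none of the 10 had an unadjusted p under 0.05. Over all 16607 genes limma called 0 (0.0%), with 451 at an unadjusted p under 0.05, while edgeR called 0 and DESeq2 called 6.

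**Figure D2:**
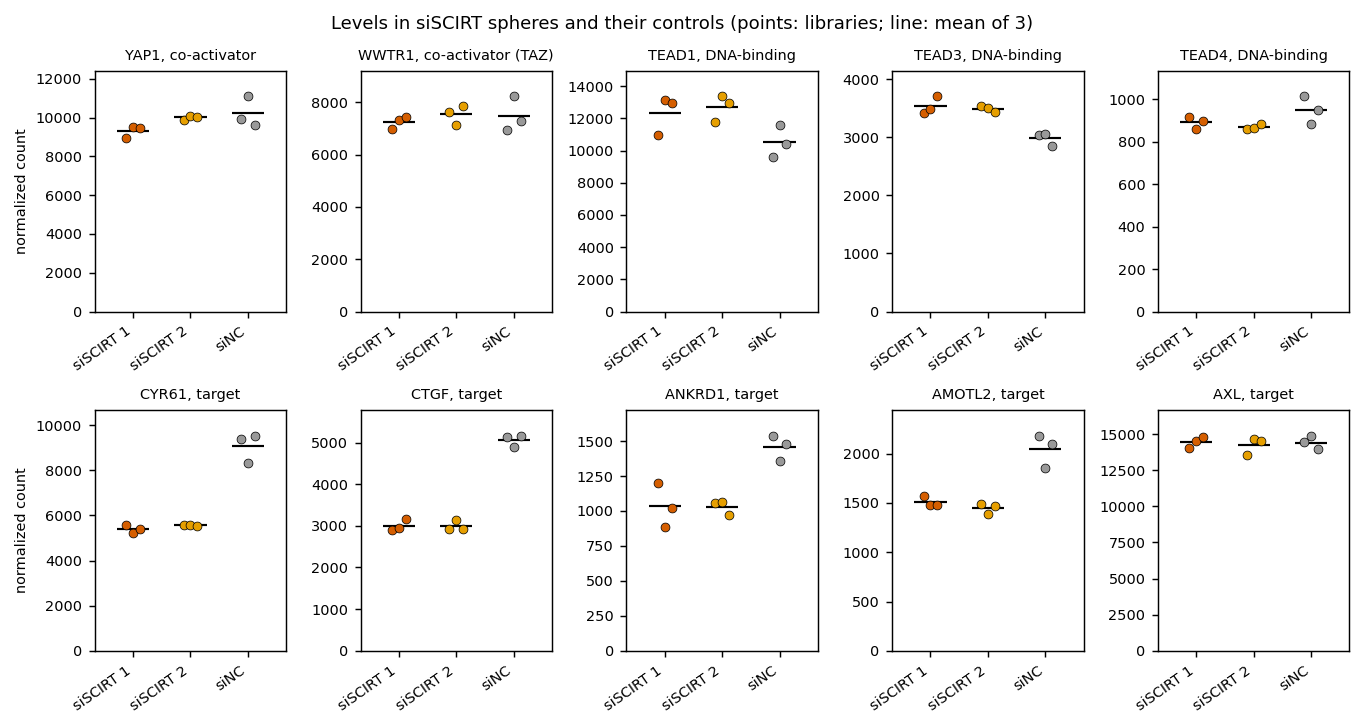
Normalized counts (y axis, from 0) of each gene in siSCIRT#1, siSCIRT#2 and siNC spheres at 48 h, with 1 point per library and a line at the mean of 3. CYR61, CTGF, ANKRD1 and AMOTL2 lie lower with both siRNAs with no overlap, TEAD3 lies higher, and AXL, YAP1 and WWTR1 share their ranges with siNC in at least 1 of the siRNA groups.

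In the EZH2 knockdown the secreted targets CYR61 and CTGF were called higher by limma and no other gene of the 10 was called, and both calls depended on the settings. EZH2 averaged 276 ± 1.89 normalized counts with siEZH2, against 524 ± 7.89 with siNC (SD, n = 2 each). Of the 10 genes, 2 were higher and 0 lower, where 6.84% of 15823 genes tested were called, 3.9% higher and 2.94% lower. By limma 2 had an unadjusted p under 0.05, the same pair, and edgeR and DESeq2 also called 0 lower. The median log2 difference of the 10 was 0.06, beside 0.01 over all genes.

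CYR61 had 6061 and 5521.5 normalized counts with siEZH2, against 3470.2 and 4735 with siNC. CTGF had 4210.1 and 4120.3 with siEZH2, against 2811.5 and 3647 with siNC. Neither gene's libraries overlapped between the groups, and the siNC libraries lay further apart than the siEZH2 ones. The log2 difference was 0.51 ± 0.12 for CYR61 (limma adjusted p 0.000782) and 0.38 ± 0.12 for CTGF (0.0251). Without siNC replicate 1, the lower of the pair, it was 0.29 for CYR61 (adjusted p 0.445) and 0.19 for CTGF (0.724), and without siEZH2 replicate 1 that of CTGF was 0.36 (0.0715). CTGF was not called by DESeq2 (0.35, adjusted p 0.107) or under quantile normalization (0.32, 0.0733), and without the variance trend neither CYR61 (0.243) nor CTGF (0.328) was. CYR61 was called in 9 and CTGF in 6 of 12 alternative settings.

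The other 8 genes had 95% intervals that included 0. Among them the largest difference was that of AMOTL2, with 1409 and 1389 normalized counts with siEZH2, against 1124 and 1359 with siNC (0.18 ± 0.12, limma adjusted p 0.467). Its siEZH2 libraries lay just above the siNC ones. ANKRD1 had 521 and 412 with siEZH2, against 431 and 469 with siNC, and AXL had 11049.8 and 11305 with siEZH2, against 9550.2 and 11825 with siNC. In both the siEZH2 values fell around or inside the siNC pair. YAP1 had 6474 and 6118 with siEZH2, against 7458 and 6592 with siNC, all siEZH2 values being below the siNC ones, which gave -0.16 ± 0.12 (limma adjusted p 0.524). WWTR1, TEAD1, TEAD3 and TEAD4 differed by between -0.01 and 0.11.

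**Figure D3:**
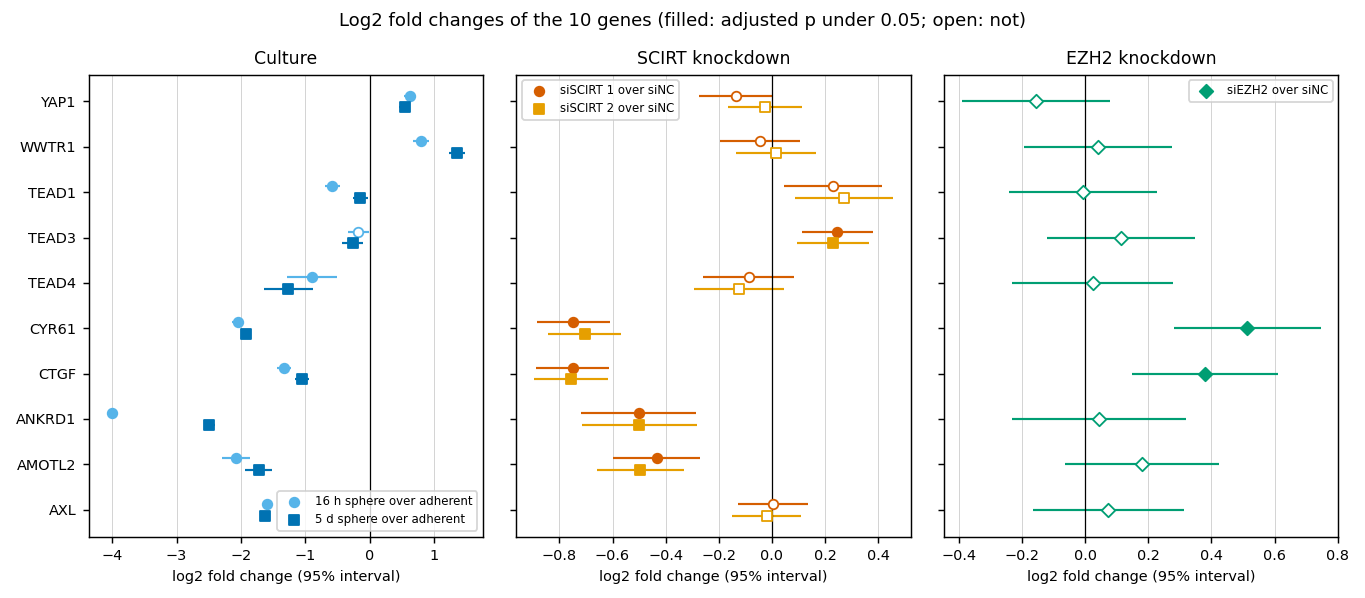
Log2 differences of the 10 genes with 95% intervals (x axis, a separate scale in each panel) for 16 h and 5 d spheres over adherent cells, each siSCIRT siRNA over siNC, and siEZH2 over siNC. Filled points had an adjusted p under 0.05 by limma, and CYR61 and CTGF are filled in all 3 panels, below 0 in the first 2 and above 0 for siEZH2.

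Side by side, CYR61 and CTGF were lower with siSCIRT (mean -0.73 and -0.75) and higher with siEZH2 (0.51 and 0.38). The siSCIRT mean calls held for both genes in all 17 alternative settings. The siEZH2 calls held in 9 of 12 for CYR61 and in 6 of 12 for CTGF, so they are less firm. The responses to the knockdowns were compared with different siNC libraries in tables normalized separately, and the difference between them was not tested. EZH2 was itself lower in the siSCIRT mean, by 0.51 on the log2 scale (SE 0.07, limma adjusted p 0.000143). SCIRT was not called with siEZH2 (-0.37), though its unadjusted limma p was under 0.05.

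The rest of the pathway was called in both directions in spheres, and its counts are to be read beside the share of all genes called, 53.9% at 16 h, 55.2% at 5 d, 14.4% in the siSCIRT mean and 6.84% with siEZH2. Of 17 genes of the Hippo kinase arm, all tested, 5 were higher and 6 lower at 16 h, with a median log2 difference of -0.05, and 7 were higher and 6 lower at 5 d, with a median of -0.06. At 16 h the kinases STK38L (1.60), MAP4K4 (1.28) and TAOK1 (1.02), which can act on LATS or beside it, were higher, and SAV1, the scaffold of the MST kinases, was lower (-1.02). At 5 d WWC1 (KIBRA), which binds LATS, was lower by 1.94 on the log2 scale. The LATS kinases, named here after their values were seen, parted at 16 h, with LATS1 at 1.04 and LATS2, itself a YAP target, at -0.59. In the siSCIRT mean 2 of the 17 were higher and MAP4K4 alone was lower (-0.30), and with siEZH2 limma, edgeR and DESeq2 called 0 each, with 3 at an unadjusted p under 0.05 in limma.

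Among 12 of 15 polarity and junction regulators that were tested in culture, 4 were higher and 5 lower at 16 h, and 6 higher and 4 lower at 5 d. AJUBA, a LIM protein that binds LATS, was lower by 1.44 at 16 h and by 1.29 at 5 d, and PTPN14, which binds YAP and is also its target, was higher by 0.85 and by 1.06. AJUBA was lower in the siSCIRT mean as well (-0.25), and PTPN14 was higher with siEZH2 (0.38). In the siSCIRT mean 1 of 15 tested was higher and 3 lower, and with siEZH2 1 was higher and 1 lower. Of 9 other nuclear partners tested, 5 were higher and 1 lower at 16 h, 5 higher and 2 lower at 5 d, and 3 higher and 1 lower in the siSCIRT mean, while with siEZH2 limma, edgeR and DESeq2 called 0 each, with 2 at an unadjusted p under 0.05 in limma. TEAD2, the remaining TEAD gene, was not called in spheres and was higher in the siSCIRT mean (0.34, limma adjusted p 0.00121). VGLL4, which competes with YAP for TEADs, was higher there by 0.38 (0.000372), and RUNX2 by 0.35 (0.00946).

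A published signature of YAP and TAZ target genes holds 17 genes beside the 5 targets above, and they were called in both directions. At 16 h 7 were higher and 5 lower, with a median of -0.05, and at 5 d 4 were higher and 7 lower, with a median of -0.23. IGFBP3, an IGF-binding protein, was higher by 3.03 at 16 h, while CRIM1 (-1.94) and MYOF (-1.11), both membrane proteins, were lower at 16 h and again at 5 d (-1.39 and -0.57). In the siSCIRT mean MYOF (-0.31), CRIM1 (-0.27) and NT5E (-0.38) were lower and 2 were higher, one of them TGFB2 (0.46). With siEZH2 F3, tissue factor (0.40), and PTPN14 (0.38) were higher, while DESeq2 called 1 gene of this list. LATS2 and PTPN14 stand in this list as well as in the lists above.

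Of the 4 other genes of the AXL family and its ligands, 1 was higher and 3 lower at 16 h and all 4 were lower at 5 d. The receptors TYRO3 (-1.75 and -1.89) and MERTK (-1.32 and -0.52) and the ligand GAS6 (-0.67 and -0.85) were lower at 16 h and 5 d, while the ligand PROS1 was higher at 16 h (0.39) and lower at 5 d (-0.21). In the siSCIRT mean limma and edgeR called 0 of the 4 and DESeq2 called 1 higher, with 2 at an unadjusted p under 0.05 in limma, and TYRO3 was higher with siEZH2 (0.78). NOV (CCN3), of the same family as CYR61 and CTGF, was lower by 2.84 at 16 h and by 3.10 at 5 d. Of 8 tested genes of that family and of the integrin and LRP receptors that its proteins bind, 7 were higher and 1, NOV, was lower at 16 h, and 6 were higher and 1 lower at 5 d. ITGA5 was higher by 3.74 at 16 h and by 2.49 at 5 d, and ITGB1 by 0.78 and by 0.62. In the siSCIRT mean ITGB1 was lower (-0.34) and LRP1 higher (0.40) of 10 tested, and with siEZH2 limma called NOV (-0.42) and ITGB3 (-0.49) lower, where DESeq2 called 0 lower of this list.

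Genes of SRF and its MRTF co-activators, another transcription system that reads the actin skeleton, showed 0 higher and 6 lower of 12 tested at 16 h by limma, as by edgeR and DESeq2, with 6 at an unadjusted p under 0.05, and 4 higher and 6 lower at 5 d. The 6 of 12 called at 16 h are close to the 53.9% of all genes called in that comparison in either direction. All 6 were lower, while 27.4% of all genes tested were called higher and 26.5% lower. Between the sphere times 6 were higher at 5 d and 3 lower, where 48.3% of all genes tested were called, 22.8% higher and 25.5% lower. Among the higher were MYL9, a myosin light chain (1.36), and VCL, vinculin (0.85). Among the lower was FHL2, which averaged 487 normalized counts at 16 h and 297 at 5 d. In the siSCIRT mean MYL9 was higher (0.34) and VCL lower (-0.27), and with siEZH2 1 gene was higher, FILIP1L (0.93), and 1 lower, MKL2 (-0.49), while DESeq2 called 2 higher and 0 lower.

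**Figure D4:**
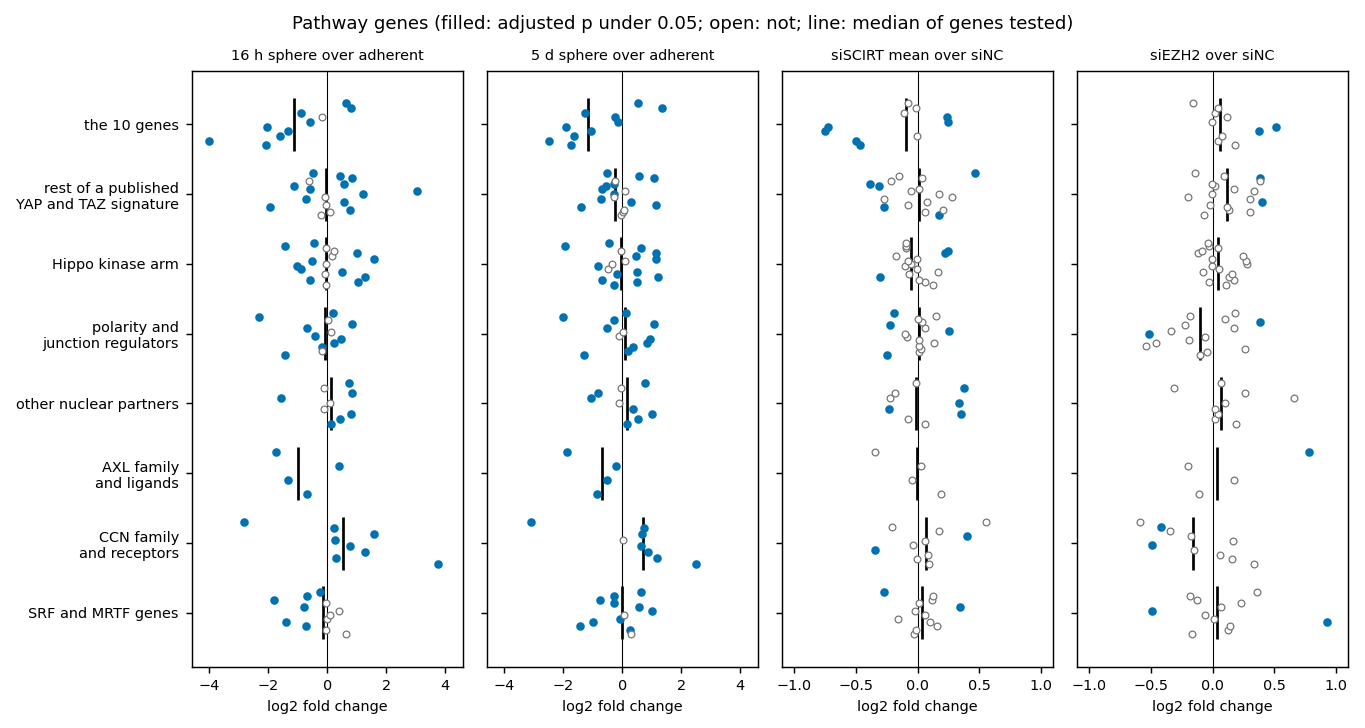
Log2 differences (x axis) of the genes tested in each list shown, with 1 point per gene, filled where the adjusted p was under 0.05, and a line at the list's median. In the sphere panels the medians of the 10 genes lie at -1.11 and -1.16, those of the other AXL family genes and its ligands at -0.995 and -0.68, those of the CCN family and its receptors at 0.53 and 0.71, and the others between -0.23 and 0.15.

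Over the 19 libraries, each gene centred on its own table, the genes most like CYR61 of 8687 compared were TMEM97 (Pearson r 0.98), RFC2 (0.97), ST7 (0.97), PHF19 (0.97) and AMOTL2 (0.97), with CTGF at rank 14 (0.96), ANKRD1 at 197 (0.90) and AXL at 233 (0.89). YAP1 ranked 8042, at -0.80. The genes most like YAP1 were EDEM3 (0.96), LPHN2 (0.95), SPRED1 (0.94), RBBP6 (0.94) and ELK3 (0.94), and WWTR1 ranked 656 (0.79). These are descriptions, since the libraries of a group share their treatment and the culture groups spread furthest.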

How the data were processed

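RNA was extracted with TRI Reagent and libraries were made with the TruSeq RNA v2 kit, per the labels. CASAVA 1.4, TopHat2, Partek and build hg19 are named in the submitters' processing notes, without their order. The deposited culture and SCIRT tables held log2 values whose pattern is that of the DESeq2 variance-stabilizing transformation, and these were turned back to normalized counts by its inverse. The deposited EZH2 table held a signal, counts divided by a size factor. Dividing by the step of 1 read gave whole reads within 0.05 for 100% of values. These recovered counts served edgeR and DESeq2 as alternatives.

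Genes with a mean of at least 10 normalized counts in a table were fitted with limma 3.58.1 in R 4.3.3 on log2(value + 1), with a variance trend and robust moderation, over all libraries of the table. Tests are two-sided and p-values are Benjamini-Hochberg adjusted over all genes tested. A gene was called at an adjusted p under 0.05. Fold changes on this scale understate the change of low genes. Linear values had been planned for, and the transformed ones were a departure. Alternatives used edgeR 4.0.16, DESeq2 1.42.0, another pseudocount, other filters, quantile normalization and each library left out.

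The siSCIRT#1 columns were identified by elimination, as the siRNA columns that do not carry the number of siSCIRT#2, and the letters a to c only name them. Nothing in the labels says that replicates came from separate cultures, so p-values measure the spread between these samples, which may be technical. The number of libraries and their reads limit precision, and intervals cover the spread between libraries. No replicate pair agreed within sampling noise, but the culture pairs came nearest to it. Their mean chi-square per gene against counting noise was 2.03 to 2.08. It was 5.2 to 26.7 in the SCIRT table and 15.1 to 15.3 in the EZH2 table. The culture libraries also held the fewest reads. Exon lengths are from GENCODE 29. The 10 genes and the gene lists were chosen with earlier results of these data known. Text names all 10 genes, and from each list up to 4 called genes of smallest adjusted p per comparison.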

Additional observations from a re-analysis of the deposited data

Results flagged for a closer look

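Of the 10 genes, 6 differed from adherent cells by an unequal amount at 5 d and at 16 h, by the limma test of 5 d against 16 h spheres. On the log2 scale the difference at 5 d minus that at 16 h was 1.51 for ANKRD1, 0.56 for WWTR1, 0.43 for TEAD1, 0.35 for AMOTL2, 0.28 for CTGF and 0.13 for CYR61. The calls of ANKRD1, WWTR1 and TEAD1 held in all 14 alternative settings. Those of CTGF, AMOTL2 and CYR61 held in 13, 11 and 10 of the 14. For ANKRD1, AMOTL2, CTGF and CYR61 the 5 d spheres stood nearer the adherent level than the 16 h spheres did, as for TEAD1, while for WWTR1 they stood further from it. Both differences use the same adherent libraries.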

How the results depend on the processing

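Of 1170 results for the 10 genes under the alternatives, 1109 kept their side of the threshold, 46 lost a call and 14 gained one. The remaining 1, AXL between 5 d and 16 h under quantile normalization (0.14), turned and was called. A change of sign where neither fit gave a call was counted among the 1109. An example is ANKRD1 with siEZH2, which ran from -0.13 to 0.21 with a library left out. Against adherent cells the calls of YAP1, WWTR1, TEAD4 and the 5 targets, and TEAD1 at 16 h, held in all 14 alternatives. Of the 10 genes, the number higher at 5 d than at 16 h was 3 without the variance trend, against 6, and the number lower ran from 0 to 1 with a library left out. The number higher with siSCIRT#1 was 0 without the trend and 0 to 2 with a library left out. With siSCIRT#2 it was 0 without a filter, without the trend and with only the compared groups, 2 with the replicate block or DESeq2, and 0 to 2 with a library left out. For the mean it was 1 without the trend and 0 to 2 with a library left out. With siEZH2 it was 1 under quantile normalization or DESeq2, 0 without the trend or with the replicate block, and 0 to 2 with a library left out; there CYR61 ran from 0.29 to 0.74 and CTGF from 0.19 to 0.57. Over all genes, calls without the trend numbered 964 for siSCIRT#1, 824 for siSCIRT#2, 1531 for their mean and 0 for siEZH2, against 1693, 1584, 2390 and 1082. The siEZH2 count was 532 with the block, 678 by DESeq2, 339 without siNC replicate 1 and 504 without siNC replicate 2. Without siNC replicate 3 the siSCIRT#1, siSCIRT#2 and mean counts were 886, 769 and 1242. The cause of these changes was not tested. Deviations from the group mean of same-numbered libraries correlated at -0.02 to -0.004 in culture and at -0.014 in the EZH2 table. In the SCIRT table, siNC and siSCIRT#2 libraries numbered 1, 2 and 3 correlated at 0.55, 0.26 and 0.03 with their own number. Unlike numbers there correlated at -0.38 to 0.13. A shared replicate effect in the SCIRT table was thus not excluded, and the main fit held no block. The siSCIRT#2 count with the block was 2642, against 1584 without it. With the block TEAD1 was called with siSCIRT#2 (adjusted p 0.00304), and CYR61 (0.057) and CTGF (0.0958) were not called with siEZH2. No block could be set for siSCIRT#1, whose columns carry no number. The values as deposited could be tested only for the culture and SCIRT tables. TEAD4 in culture, at 61 to 111 reads in spheres, had the widest errors of the 10 genes.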
